A study of Mus musculus with 4 samples.

Results

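A set of 9 genes of the central myelin sheath, Mbp, Mobp, Mog, Mag, Cldn11, Cnp, Ermn, Mal and Opalin, were followed across mouse brain sections that held a regrowing tumour. They were taken by gene symbol and are 9 of the 20457 genes with counts. A tumour had been inoculated and then resected in every brain, and the tissue was taken on day 11 after either a hydrogel (labelled TREAT) or Vehicle, which the study's design text calls not treated. Each group had 2 capture areas, and a capture area held 2 separate pieces of brain. The areas are named Vehicle 1+4, Vehicle 2+3, TREAT 1+4 and TREAT 2+3. The design text states 4 animals in all and does not say which animal lies in which of the 8 pieces, so some pieces may share an animal and the p-values below measure only the spread between 4 areas. The strain, sex and age of the mice, the tumour line and the composition of the hydrogel are not given in the sources used here.

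Myelin in the brain is made by oligodendrocytes, which wrap axons in many layers of tightly packed membrane. Mature oligodendrocytes sit densely in white matter tracts and more sparsely in grey matter, and their precursors carry far less of most sheath transcripts. Several myelin transcripts, Mbp among them, are carried out into the processes of the cell and translated beside the sheath.

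Mbp encodes the basic protein that holds the cytoplasmic faces of compact myelin together, and lies at chromosome 18, 82475091 to 82585637, in the mm10 (GRCm38) assembly. Mobp encodes a further, smaller basic protein of compact central myelin (chromosome 9, 120149742 to 120181488). Mog encodes a glycoprotein on the outermost surface of the sheath (chromosome 17, 37010740 to 37023398). Mag encodes an adhesion molecule on the innermost wrap, facing the axon (chromosome 7, 30899175 to 30914922). Cldn11 encodes the claudin of the tight junctions within the sheath (chromosome 3, 31149920 to 31164326). Cnp encodes a cyclic nucleotide phosphodiesterase that keeps cytoplasmic channels through the sheath open (chromosome 11, 100574909 to 100591875). Ermn encodes ermin, a cytoskeletal protein of mature oligodendrocytes (chromosome 2, 58045115 to 58052864). Mal encodes a raft-associated membrane protein of myelin (chromosome 2, 127633226 to 127656695), and Opalin a transmembrane glycoprotein of oligodendrocytes (chromosome 19, 41061959 to 41077113).

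RNA was read with gene-specific probes on formalin-fixed, paraffin-embedded sections, and unique molecules (UMIs) were counted per spot. A spot is a small patch of tissue that can hold several cells or parts of them. The 4 areas held 3013 to 3488 tissue spots, and their median depth was 7310 and 8377 UMIs per spot in Vehicle against 14986.5 and 12248 in TREAT. The 13003 spots with at least 500 UMIs were used. Mbp was counted 515954 times over them and was found in 94.3% of spots, Cnp in 93.9%, Mobp in 75.4%, and the least abundant member, Opalin, 9014 times in 32.7% of spots. Probes differ in number and efficiency between genes, so levels are compared here only within a gene or as the sum of the 9 genes. Levels are given as CPM, the gene's UMIs scaled to a fixed total over all UMIs of the spots summed.

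Because the 9 genes moved together through the tissue, the sequences before their transcription starts were searched for letters bound by 2 oligodendrocyte factors. The searches covered 250 bases before each start on both strands, in the RefSeq promoter table of GRCm38.p6, which held 8 of the 9 members; Mbp was not in it. ACAAAG, the core that Sox10 and other SOX factors bind, was found in 16.5% of the 32851 promoters in that table, and CTGGCAC, a motif of the myelin gene regulatory factor Myrf, in 4.19%. The window of Mobp held 6 copies of the first and none of the second. Cnp and Opalin held 1 copy of ACAAAG each, Mag 1 in 2 of its 3 start sites, and Mog, Mal, Cldn11 and Ermn none. CTGGCAC was found once in Cnp and in the same number of Mag windows as ACAAAG. The 3 windows shown are those of the members with the most copies (Mobp) and with the most distinctive behaviour below (Cldn11 around the tumour, Ermn inside it), with ACAAAG or its complement CTTTGT in capitals.
Mobp, chr9:120149492-120149741, plus strand: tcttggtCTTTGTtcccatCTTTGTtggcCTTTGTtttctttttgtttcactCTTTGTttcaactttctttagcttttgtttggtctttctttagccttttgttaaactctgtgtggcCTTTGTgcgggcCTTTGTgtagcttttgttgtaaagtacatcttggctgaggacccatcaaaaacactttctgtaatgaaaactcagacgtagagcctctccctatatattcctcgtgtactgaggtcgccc
Cldn11, chr3:31149670-31149919, plus strand: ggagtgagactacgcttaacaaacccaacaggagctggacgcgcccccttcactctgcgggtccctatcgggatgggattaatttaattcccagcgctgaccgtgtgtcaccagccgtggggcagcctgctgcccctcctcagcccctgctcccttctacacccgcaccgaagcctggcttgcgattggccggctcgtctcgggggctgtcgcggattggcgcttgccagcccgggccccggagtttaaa
Ermn, chr2:58052865-58053114, minus strand: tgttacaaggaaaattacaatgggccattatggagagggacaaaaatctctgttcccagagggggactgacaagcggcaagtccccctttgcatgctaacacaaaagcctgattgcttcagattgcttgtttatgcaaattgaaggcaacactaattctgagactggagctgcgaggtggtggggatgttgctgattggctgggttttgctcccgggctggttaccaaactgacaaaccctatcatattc
A match is only a run of letters, and the absence of one says nothing of the factor.

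Spots were clustered with the 9 genes left out, and a cluster was given a region's name only from marker genes that include no member. Mapped back onto the sections, the 9 genes were highest in narrow bands and emptied out over the tumour. No fibre tract was annotated on the sections.

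**Figure D1:**
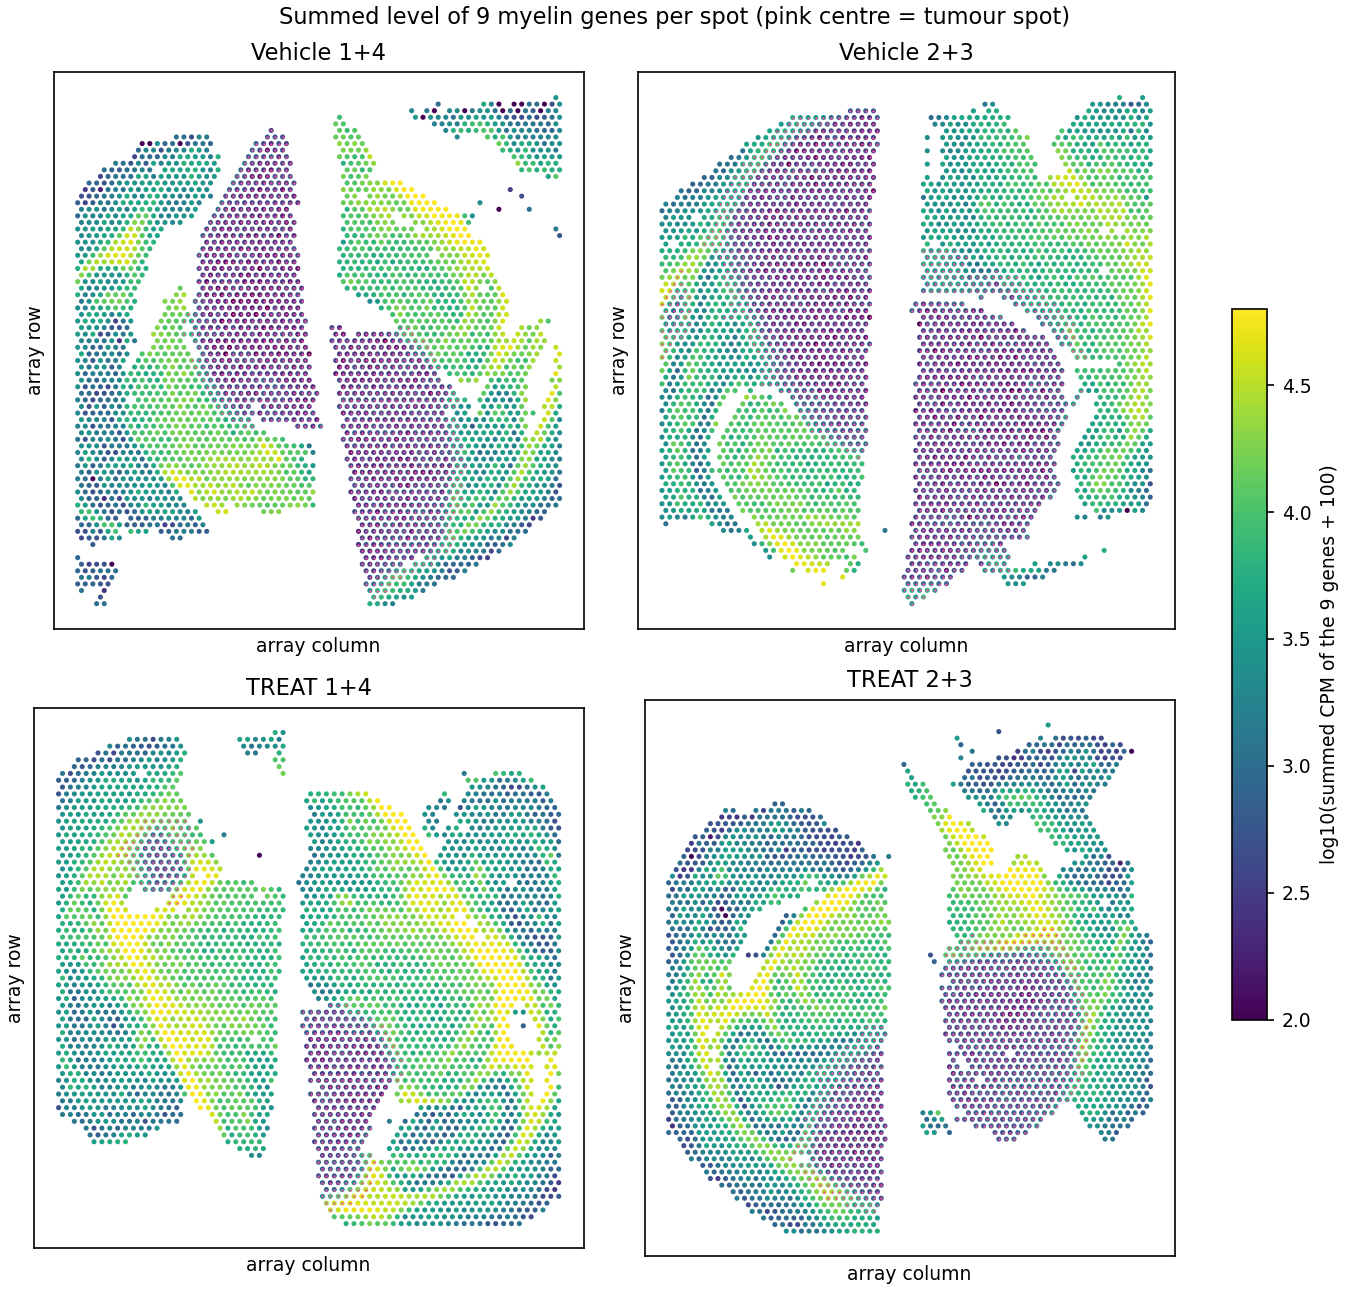
The summed level of the 9 myelin genes in each spot of the 4 capture areas, as log10 of CPM + 100 on a colour scale, drawn at the spot's row and column on the array. Tumour spots, marked with a pink centre, fill the darkest, lowest areas, and the narrow bright bands hold the highest levels.

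The white matter cluster had the highest level of all 9 genes, and its lowest area lay above the highest area of the next region for each of them. The 9 genes summed to 45809 and 42910 CPM there in the TREAT areas, and to 34940 and 31470.7 CPM in the Vehicle areas. Next for every member came a cluster led by Pvalb and Gad1, genes of inhibitory neurons (median 18481.3 CPM, range 16675.6 to 21894). It also met the count of white matter markers, with 5 among its 50 leading genes where 3 were needed and 10 in the white matter cluster, but was kept apart because neuronal genes led it. The white matter median was 2.11 times as high. For Cldn11, Ermn and Opalin this cluster and the region after it overlapped over areas, so that order is not separated from the spread. A thalamic cluster led by Spp1 followed with 10692.5 CPM and the remaining thalamus with 9220 CPM.

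Cerebral cortex and hippocampus, where grey matter dominates, were close to each other at medians of 3525 and 3361 CPM, and their ranges overlapped (3212 to 3955 and 2746 to 3725). White matter was 11.0 times as high as cortex. The contrast was similar across members, from 8.003 times for Cldn11 and 9.02 for Cnp to 11.3 for Mbp, 11.6 for Mog and 12.8 for Mobp. The lowest levels of all were in the tumour clusters: one found in the TREAT areas held 358 to 469 CPM and one in the Vehicle areas 280 to 308 CPM. White matter stood 94.2 and 132 times above these. Cnp kept more of its level there than the others, at 248.7 to 342.8 CPM in the TREAT tumour cluster and 164 to 199 CPM in the Vehicle one, so that white matter was only 19.9 times as high as the latter. For Mobp the same ratio was 570, for Mog 458 and for Opalin 397. These levels are a description, with no test between regions.

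**Figure D2:**
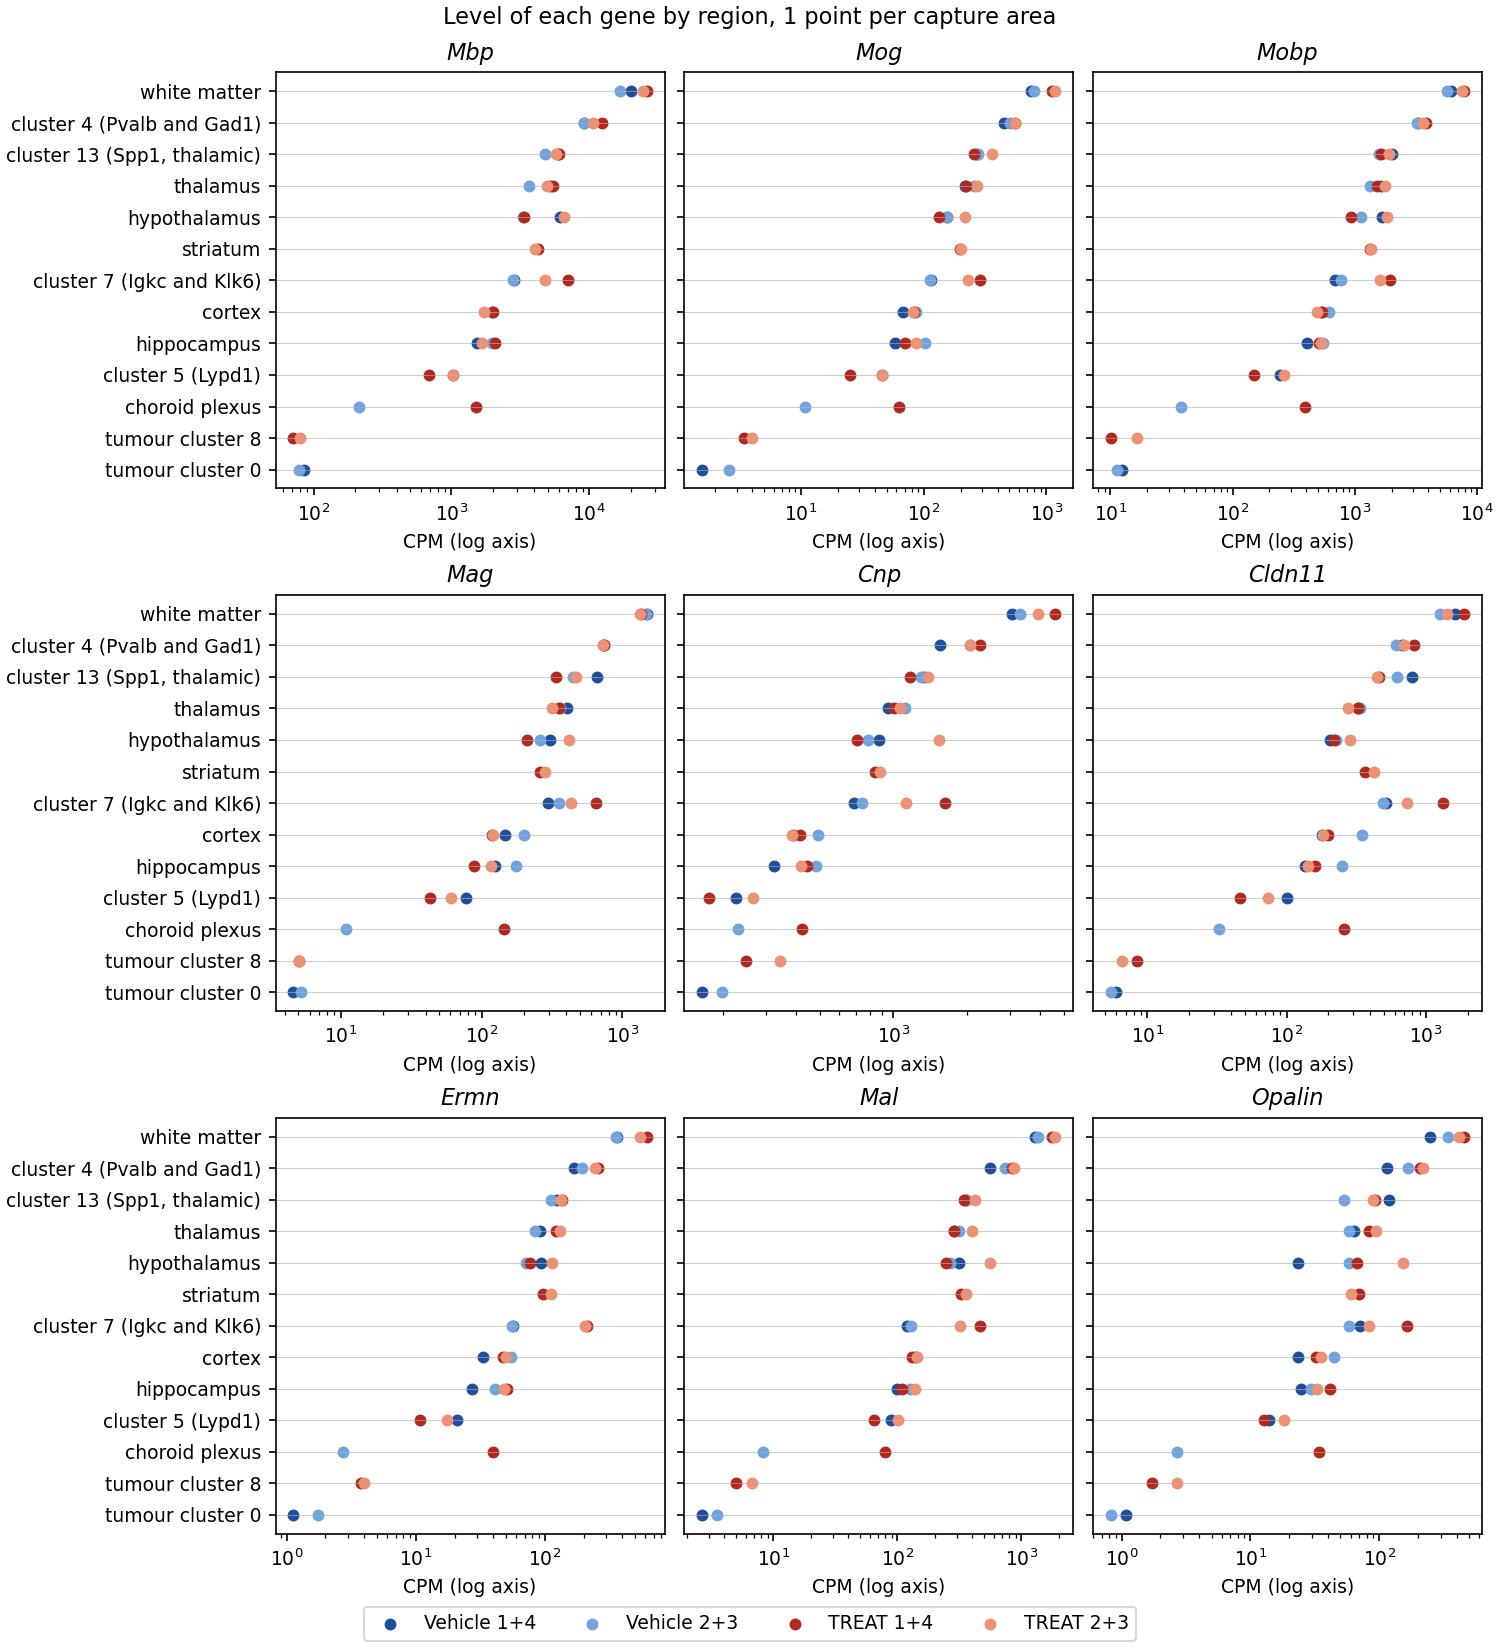
Level of each of the 9 genes by region in CPM on a log axis, with 1 point per capture area. White matter is highest for every gene, the tumour clusters lie at or near the bottom, and Cnp shows the shallowest fall.

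Tumour was then marked out without any myelin gene, from the summed level of 21 proliferation genes such as Mki67 and Top2a, smoothed over neighbouring spots. This gave 1075 and 1658 tumour spots in the Vehicle areas and 345 and 753 in the TREAT areas. Spots were sorted by their distance from the tumour edge on the array's grid: a ring of 1 to 3 steps outside it, and brain 7 or more steps away, called distant here. In all 4 areas the tumour held less of every member than the distant brain of the same area. Mbp stood at 187 and 274 CPM in the Vehicle tumours and at 1370 and 658 CPM in the TREAT tumours, against 4784 and 5191 CPM in distant Vehicle brain and 5288 and 3915 CPM in distant TREAT brain. The tumour and distant values did not overlap for Mbp in any area.

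With the area as a block, all 9 genes were lower in tumour (edgeR quasi-likelihood test, Benjamini-Hochberg adjusted p from 2.37e-05 to 0.00102). Of the 20064 genes tested, 31% were lower and 30.5% higher. Mal differed most, with a log2 difference of -3.96 ± 0.48 (SE), followed by Mobp at -3.79 ± 0.46, Mog at -3.69 ± 0.42 and Mbp at -3.49 ± 0.39. Opalin was at -3.19 ± 0.38, Ermn at -3.08 ± 0.49 and Mag at -2.97 ± 0.44. The smallest differences were those of Cldn11, -2.24 ± 0.42, and Cnp, -1.63 ± 0.23. In such spots, fewer oligodendrocytes and less RNA per oligodendrocyte cannot be told apart. Tumour spots also held more RNA: their median was 20116 to 34063 UMIs against 4412 to 14297 UMIs in distant spots. Counted per spot instead, the 9 genes gave 9.50 and 14.7 UMIs in the Vehicle tumours against 49.97 and 52.20 in distant Vehicle brain. In TREAT the same count was 85.8 and 50.4 UMIs in tumour against 141 and 80.0 in distant brain. Per spot, Cnp and Cldn11 were not lower in the TREAT tumours, where distant brain held 0.933 and 0.596 times the tumour's Cnp and 0.690 and 0.848 times its Cldn11. All other members were lower per spot in all 4 areas.

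The other genes of the sheath followed. Of 20 further myelin structure and lipid genes, 15 were lower in tumour and 2 were higher, Mpzl1 and Adamts4. Their median log2 difference was -2.48. Of 10 oligodendrocyte transcription factors 8 were lower and 1 was higher. The higher one was Sox10, which specifies the lineage: 252 and 336 CPM in the TREAT tumours and 382 and 330 CPM in the Vehicle tumours, against 47.4 to 84.4 CPM in distant brain (log2 difference 2.17). Of 13 genes of the node of Ranvier and the axon 12 were lower (median -4.15), as were all 10 neuronal genes (median -5.30, beside -3.19 for the 9 members). Of 5 genes of peripheral, Schwann cell myelin 3 were higher in tumour and none lower.

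With the border set by the smoothed proliferation score, the level fell over the first steps inside it rather than at the border itself. That score pools a spot with its neighbours, so spots of brain beside the tumour can be marked as inside. The tumour clusters made up only 3.07% to 17.5% of the outer 2 steps. How far the smoothing sets the place of the fall was not tested. In TREAT 1+4 the 9 genes summed to 22699 CPM 1 step outside the tumour, 16849 at the first step inside, 5163 at the second, 1189 at the third and 314 at 6 or more steps inside. TREAT 2+3 ran from 10910 CPM outside through 14204 and 6375 to 422. Vehicle 1+4 ran from 7588 through 7232 and 1846 to 239, and Vehicle 2+3 from 7080 through 7151 and 3647 to 280. From the last step outside to the first step inside, the level fell in TREAT 1+4, rose in TREAT 2+3 and moved little in both Vehicle areas. At 6 or more steps inside Mbp was at 55.4 to 66.2 CPM.

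**Figure D3:**
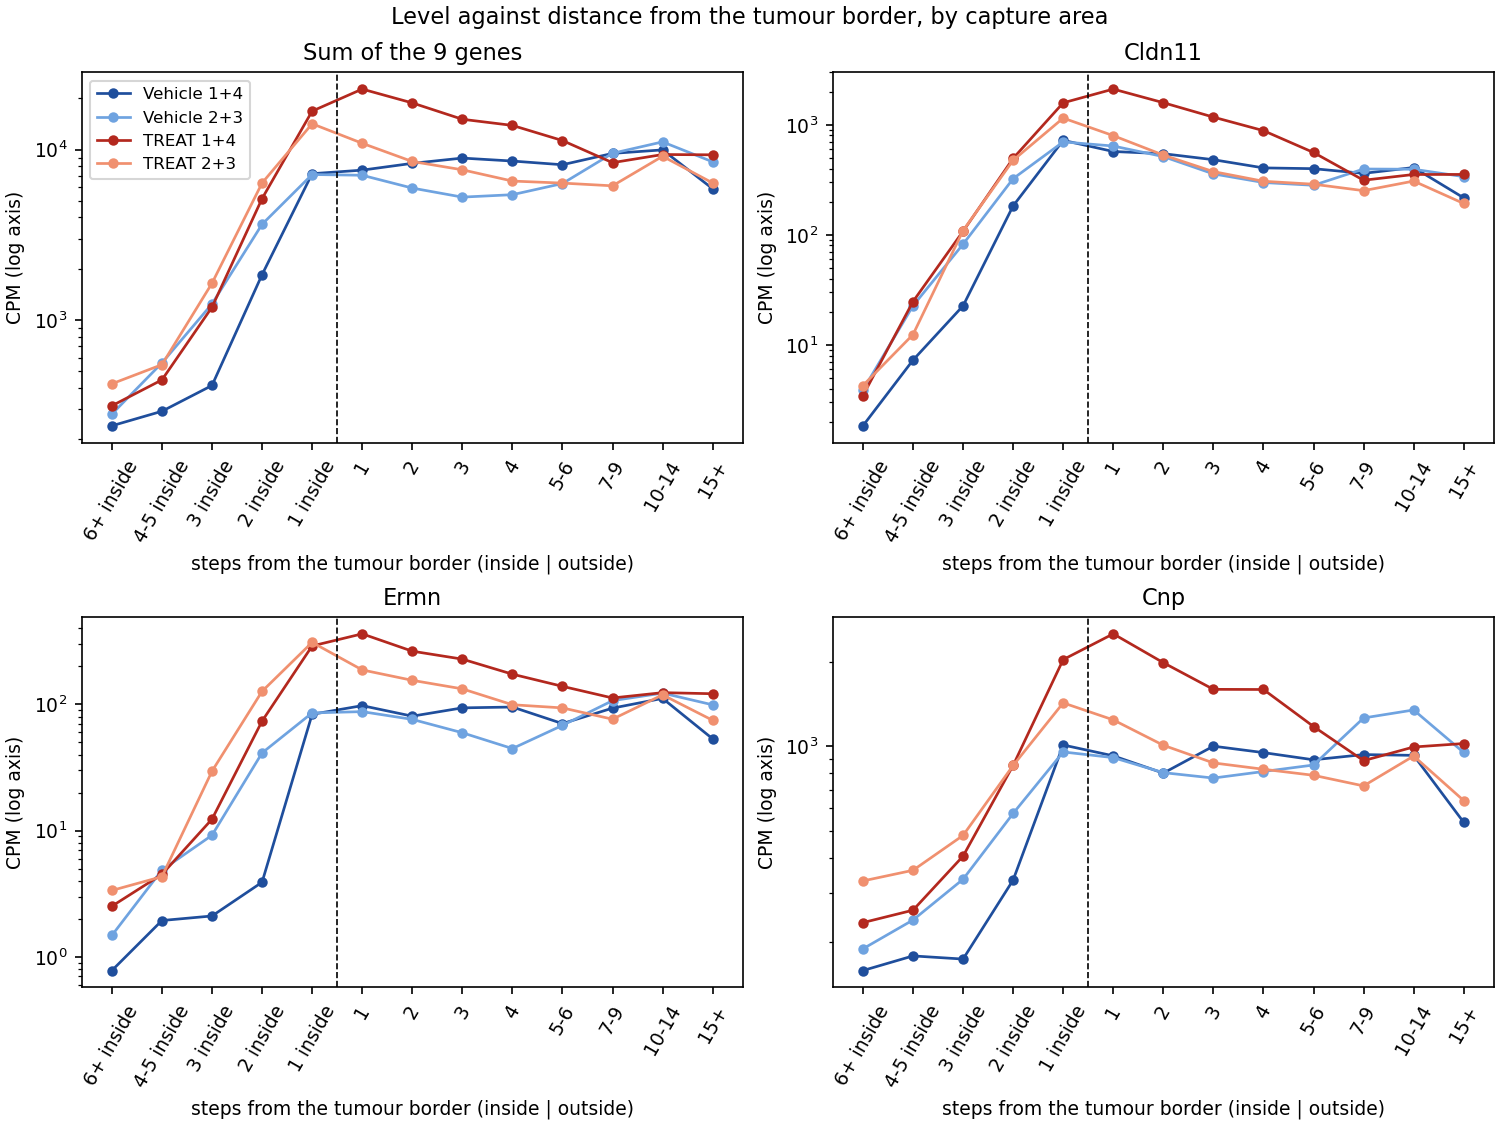
Level in CPM on a log axis against distance from the tumour border (dashed) in grid steps, for the sum of the 9 genes and for Cldn11, Ermn and Cnp, with 1 line per capture area. The summed level falls over the second and deeper steps inside the border, and outside it the summed level in both TREAT areas falls from the first step to steps 5 to 6, where TREAT 1+4 goes from 22699 to 11320 CPM.

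Outside the edge the profiles differed in shape. Levels at the first step were 2.01 and 1.71 times those at 5 to 6 steps in the TREAT areas, against 0.930 and 1.12 times in the Vehicle areas. In the 4 TREAT pieces the ratio was 1.87, 2.28, 1.84 and 1.80, and in the 4 Vehicle pieces 1.05, 0.982, 1.37 and 0.744. The groups did not overlap for the sum, nor for 7 of the 9 genes taken singly; Cldn11 and Opalin overlapped. Over 11005 genes, 1.4% had all TREAT pieces above all Vehicle pieces and 1.76% all below. The absolute level did overlap: the left piece of TREAT 2+3 held 7131 CPM at the first step, within the 5566 to 11318 CPM of the Vehicle pieces. This ratio was chosen after the profile was seen and has no test.

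Cldn11 was the one member called higher around the tumour. In the ring it stood at 1584 and 547 CPM in TREAT and at 530 and 503 CPM in Vehicle, against 348 and 233 CPM and 327 and 380 CPM in the distant brain of the same areas. Each ring value lay above its own area's distant value, by 4.56 and 2.35 times in TREAT and 1.62 and 1.32 times in Vehicle. The log2 difference was 1.10 ± 0.27 (edgeR adjusted p = 0.0325), while 10.5% of 15155 genes were higher in the ring and 5.13% lower. The adjusted p was 0.0833 without Vehicle 1+4 and 0.0846 without TREAT 2+3. The other 8 members ranged from -0.03 for Mal to 0.54 for Mag and did not pass. Within areas, the 9 genes summed stood in the ring at 2.02 and 1.27 times their distant level in TREAT. In Vehicle they stood at 0.995 and 0.614 times. For Mag these ratios were 2.77 and 1.84 in TREAT and 1.23 and 0.759 in Vehicle. With the tumour taken as the 2 tumour clusters no member was higher in the ring and 5 were lower, as were 29.1% of 17244 genes. Claudin-11 is also made by barrier cells of the meninges, and 9 meningeal and fibroblast genes summed to 227, 272, 303 and 68.3 CPM in the rings of Vehicle 1+4, Vehicle 2+3, TREAT 1+4 and TREAT 2+3, against 103 to 164 CPM in distant brain. None of the 9 was at 0, and their part in the result was not tested. Of 19 further myelin genes 1 was higher in the ring, the iron carrier gene Trf at 1.62, and of 10 oligodendrocyte transcription factors 1, Sox10 at 0.72. Among 8 genes that oligodendrocytes and other glia raise in disease, 6 were higher in the ring (median log2 difference 2.11), led by Serpina3n at 3.27 and Klk6 at 2.66.

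Inside the tumour as marked by proliferation, the 9 genes were all higher in TREAT than in Vehicle. The areas did not overlap for any of them. Ermn was at 43.4 and 27.9 CPM in the TREAT tumours against 2.82 and 6.20 CPM in the Vehicle tumours, a 5.77-fold difference (log2 2.53 ± 0.30, edgeR adjusted p = 7.32e-05). Both TREAT values lay above both Vehicle values, as they did for 43.3% of the 10265 genes at 10 CPM or more. Mal stood at 79.4 and 45.1 CPM against 6.90 and 13.1 CPM (log2 2.19 ± 0.27, edgeR adjusted p = 8.63e-05). Opalin stood at 32.8 and 12.2 CPM against 3.24 and 4.83 CPM (log2 2.01 ± 0.36, edgeR adjusted p = 0.000969). These 3 are membrane or cytoskeletal proteins of the mature cell, and the basic proteins of compact myelin moved with them. Mobp was at 338 and 211 CPM against 36.7 and 69.7 CPM (log2 1.94 ± 0.25), and Mbp, with the values given above, differed by 1.70 ± 0.27.

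Cldn11 was at 256 and 98.7 CPM against 26.9 and 42.2 CPM (log2 1.92 ± 0.30). The surface glycoprotein gene Mog was at 52.0 and 30.2 CPM against 5.46 and 11.9 CPM, a difference of 1.80 ± 0.30. Mag was at 130 and 59.9 CPM against 15.3 and 30.6 CPM, a difference of 1.61 ± 0.30. Cnp differed least, at 541 and 437 CPM against 188 and 241 CPM (0.76 ± 0.18, edgeR adjusted p = 0.00718). In every one of the 9 genes TREAT 1+4 was the higher TREAT area and Vehicle 1+4 the lower Vehicle area. The members' median was 1.92, beside 0.10 over all genes tested. Of the 19873 genes tested, 10.6% were called higher and 17.2% lower, or 2106 and 3410 genes; scaled by library totals instead, 7360 were higher and 1239 lower, and the median of all genes moved from 0.10 to 0.53. Without Vehicle 1+4 3 of the 9 genes were called, Mobp, Ermn and Mal, where 27 of 20160 genes were higher and 828 lower. The members' median was then 1.56, and all 9 had an unadjusted p under 0.05. With the tumour taken instead as the 2 tumour clusters, only Ermn was higher (log2 0.95, edgeR adjusted p = 0.0433, with 11.8% of 19551 genes higher) and Mbp was lower (-0.59, edgeR adjusted p = 0.0193, with 20.2% lower). Mobp, Mag and Cldn11 turned to -0.29, -0.45 and -0.10 there without passing. These values are after TMM scaling. In unscaled CPM the areas overlapped for Mbp, at 71.4 to 80.4 in the TREAT tumour cluster and 78.6 to 85.7 in the Vehicle one.

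**Figure D4:**
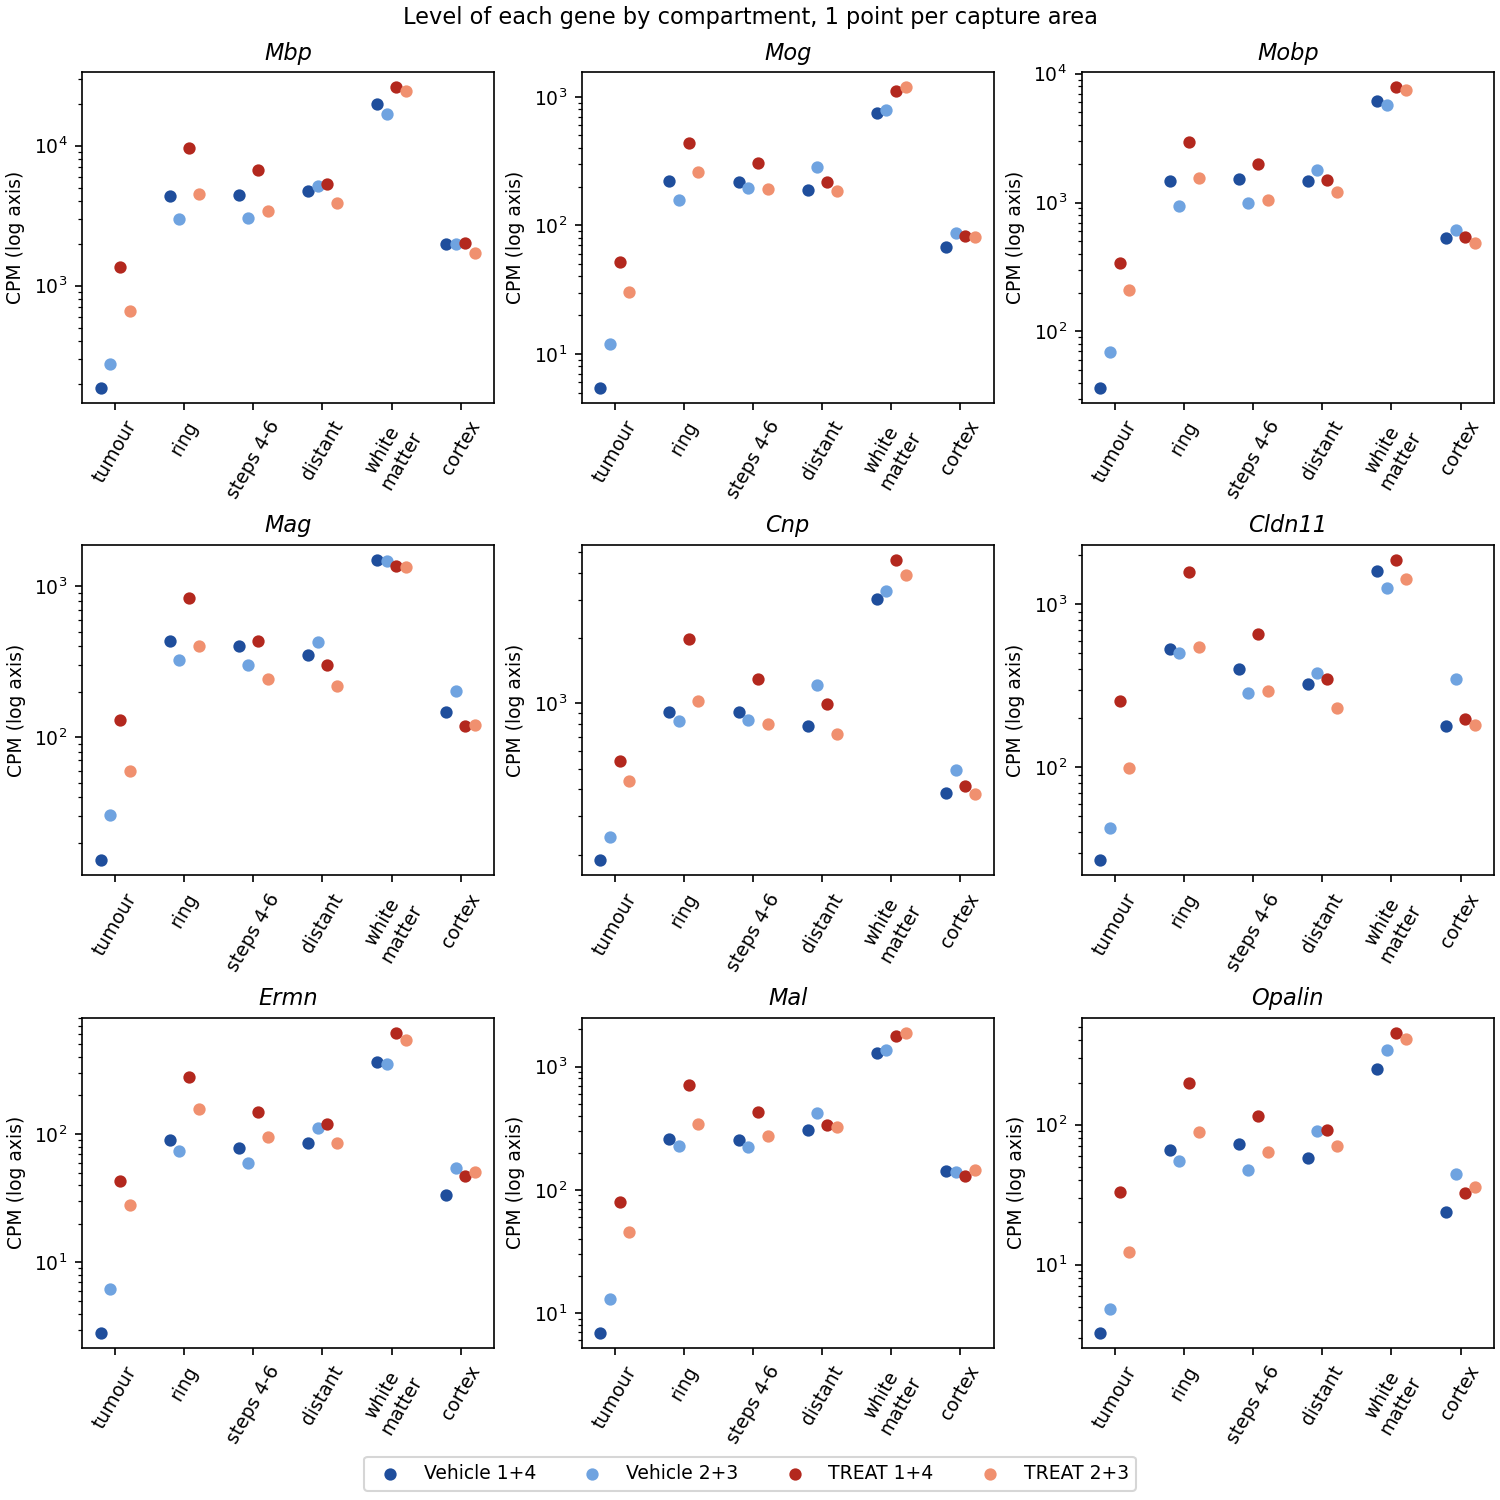
Level of each of the 9 genes in tumour, ring, steps 4 to 6, distant brain, white matter and cortex in CPM on a log axis, with 1 point per capture area coloured by group. TREAT and Vehicle points separate in the tumour for all 9 genes and overlap in distant brain for all but Mag.

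The tumour was then split by depth, with no test of its rim against its interior. The TREAT tumours were smaller: 33.0% and 21.6% of their spots lay in the outer 2 steps, against 12.7% and 13.6% in Vehicle. Those outer spots held 84.8% and 66.3% of the tumour's UMIs of the 9 genes in TREAT, and 47.4% and 47.9% in Vehicle. A cluster led by Igkc and Klk6 made up 67.5% and 62.6% of the outer spots in TREAT, against 35.0% and 38.5% in Vehicle. The tumour clusters made up 5.26% and 3.07% in TREAT and 17.5% and 3.10% in Vehicle, so most outer spots lay outside them. Over all tumour spots the Igkc and Klk6 cluster made up 35.1% and 18.7% in TREAT, against 5.21% and 7.96% in Vehicle. Within the outer 2 steps alone the 9 genes summed to 9585 and 9096 CPM in TREAT against 3376 and 4809 CPM in Vehicle. The log2 differences there ran from 0.88 to 1.99, and none of the 9 passed (edgeR adjusted p 0.193 to 0.220; 0% of 13706 genes were called, and 1999 had an unadjusted p under 0.05). From the third step inwards 4 of the 9 were higher, Ermn, Cldn11, Opalin and Mal, where 10.7% of genes were. In CPM both TREAT areas lay above both Vehicle areas for all 9 genes in the outer 2 steps and from the third step inwards alike. The share of all genes that did so was not computed at these depths. Over all tumour spots it was 43.3% of genes, so this order is no result about the members. At 6 or more steps inside the sum was 314 and 422 CPM in TREAT against 239 and 280 CPM in Vehicle. There no member was called higher, where 9.97% of genes were, and Mbp was lower in TREAT (55.4 and 57.7 CPM against 64.9 and 66.2 CPM, log2 -0.62, edgeR adjusted p = 0.0232, with 16.2% of genes lower). That log2 value is after TMM scaling. The unscaled CPM lay closer, with group means of 56.5 against 65.6 CPM, and library totals were not tried at that depth. Ermn at that depth was at 2.52 and 3.36 CPM against 0.778 and 1.48 CPM and did not pass. How far the share of rim spots, or the clusters they fell in, accounts for the difference over whole tumours was not tested.

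Of 20 further myelin structure and lipid genes 11 were higher in the TREAT tumours and 1 was lower, with a median of 1.13. The higher ones included Hapln2 at 1.71, which organises the matrix at nodes, and 3 enzymes, Fa2h at 1.69, Car2 at 1.68 and Ugt8a at 1.64. The lower one was the protease gene Adamts4 at -0.75. Of 10 oligodendrocyte transcription factors 6 were higher, among them Zfp536 at 1.61, Zfp488 at 1.58, Nkx6-2 at 1.51 and Myrf at 1.11. Sox10 was lower (-0.71, edgeR adjusted p = 0.0160), though its areas overlapped in CPM, at 252 and 336 in TREAT against 382 and 330 in Vehicle. Of 10 precursor and newly formed oligodendrocyte genes 4 were higher and none lower (Lhfpl3, Tnr, Enpp6 and Gpr17), and of 12 node and axon genes 4 were higher, Nfasc, Cntn2, Kcna1 and Ank3. Of 10 cholesterol synthesis genes none was higher and 2 were lower, among them Lss at -0.58. Of 10 neuronal genes only Gad1 at 1.42 and Gad2 at 1.38 were higher, with a list median of -0.19. Of 8 genes that oligodendrocytes and other glia raise in disease 3 were higher, Il33 at 1.96, Klk6 at 1.38 and C4b at 0.48, and H2-D1 was lower at -0.77. None of the 5 Schwann cell myelin genes was called in either direction.

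Markers of other tissues moved too. The 7 choroid plexus markers were high in 1 TREAT tumour area only. They summed to 4554 CPM in TREAT 1+4 against 89.5, 76.9 and 199 CPM in TREAT 2+3, Vehicle 1+4 and Vehicle 2+3. In the outer 2 steps of TREAT 1+4 they reached 17709 CPM. Astrocyte markers summed to 477 and 317 CPM in the TREAT tumours against 231 and 306 CPM, and neuronal markers to 200 and 303 CPM against 184 and 231 CPM. The part of these other cells in the result was not tested.

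The tumour-to-distant difference was itself compared between the groups. It was smaller in TREAT for all 9 genes, by 1.01 to 2.58 on the log2 scale, and Ermn alone passed (2.58 ± 0.23, edgeR adjusted p = 0.0412). Only 0.0249% of 20064 genes, 5 in all, passed this test. The other 8 members had adjusted p from 0.0593 to 0.0738. The call for Ermn was lost without Vehicle 1+4 (adjusted p = 0.474) and without Vehicle 2+3 (0.258).

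**Figure D5:**
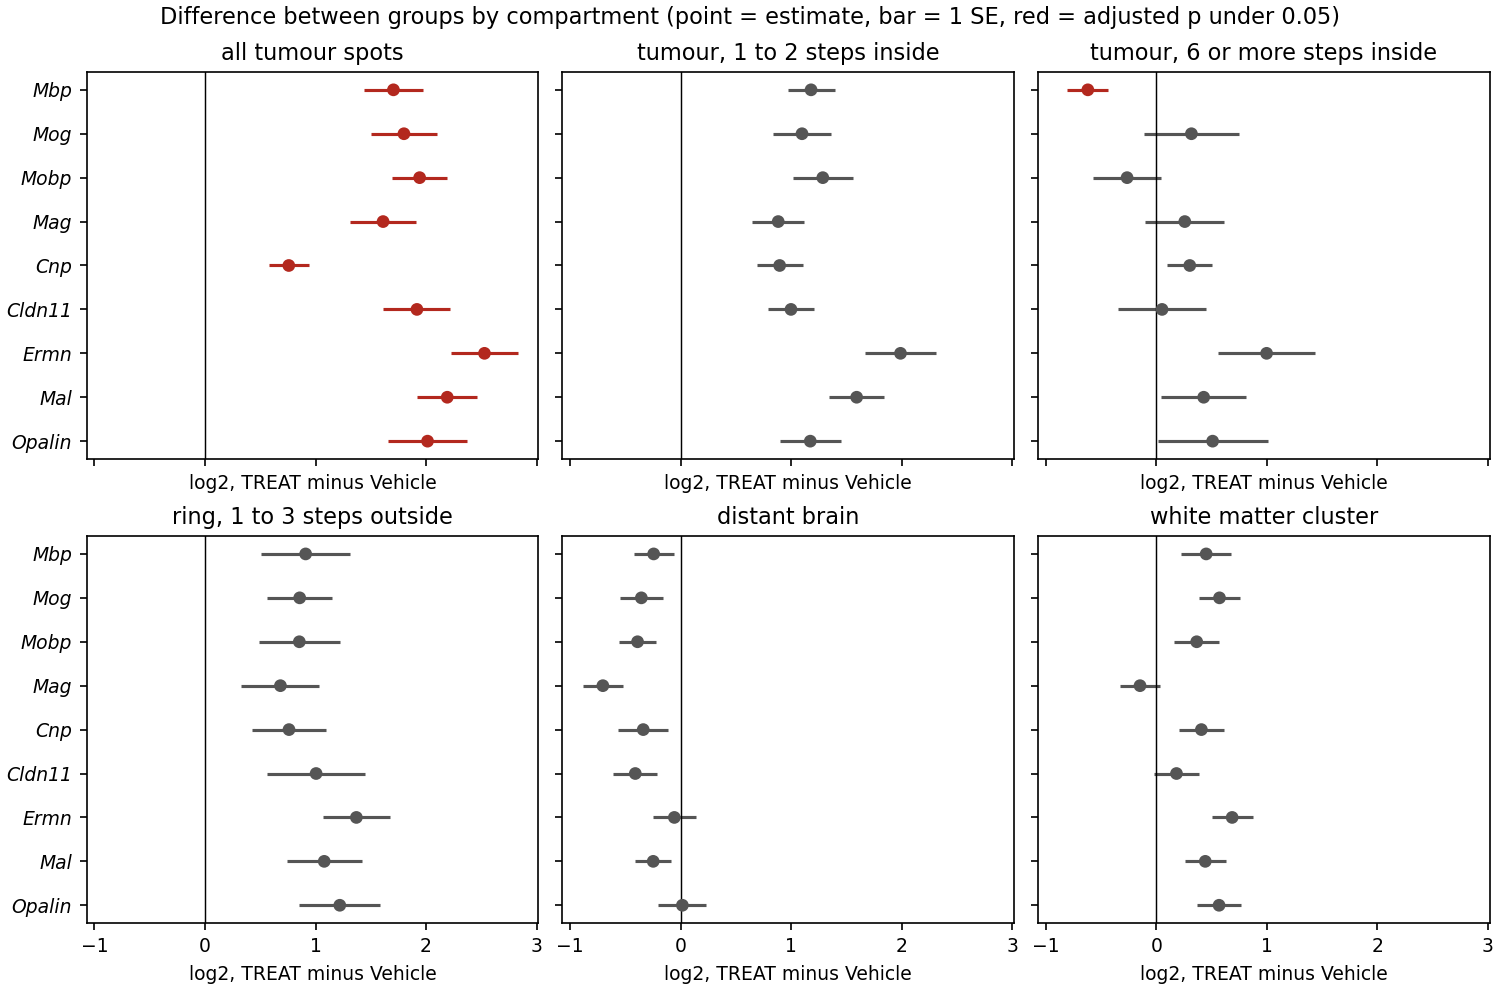
TREAT against Vehicle log2 differences of each of the 9 genes in tumour (all, outer and inner spots), ring, distant brain and white matter, with bars of 1 standard error and red for an adjusted p under 0.05. The tumour differences run from 0.76 to 2.53 under the proliferation rule, and those in distant brain from -0.70 to 0.02.

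In the ring the same direction appeared with a wider spread. The 9 genes summed to 18549 and 8862 CPM in the TREAT rings against 8328 and 6079 CPM in the Vehicle rings, and TREAT 1+4 stood apart from the other 3 areas. Mbp was at 9590 and 4508 CPM against 4345 and 2977 CPM, and Ermn at 279 and 156 CPM against 90.5 and 74.4 CPM. For 8 of the 9 genes both TREAT areas lay above both Vehicle areas, as for 19.5% of all genes. Log2 differences ran from 0.68 for Mag to 1.37 for Ermn, and none of the 9 passed (edgeR adjusted p 0.786 to 0.793). No gene of 13546 did (0%), with 830 at an unadjusted p under 0.05, 4 of the members among them; DESeq2 called no member. Without TREAT 2+3 all 9 were higher, where 114 of 14089 genes were, and without TREAT 1+4 Ermn alone was, where 81 of 13699 genes were. The rings also crossed different tissue. A cluster led by Igkc and Klk6 made up 49.8% and 11.1% of the TREAT rings against 2.37% and 6.61% of the Vehicle rings, and the Pvalb and Gad1 cluster made up 34.0% of the ring of Vehicle 1+4 and none of that of Vehicle 2+3. Neuronal markers summed to 3949 and 8254 CPM in the TREAT rings against 7266 and 7883 CPM. The part of this composition in the result was not tested. The ring-to-distant difference also did not pass between groups for any member (0.94 to 1.32, edgeR adjusted p = 0.999928, 0% of 15155 genes called and 501 at an unadjusted p under 0.05).

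Away from the tumour no member was called between the groups in the main setting. In distant brain the 9 genes summed to 9203 and 6972 CPM in TREAT against 8367 and 9896 CPM in Vehicle. Log2 differences ran from -0.70 for Mag to 0.02 for Opalin, and none passed (edgeR adjusted p 0.265 to 0.979; 0% of 18600 genes were called, with 2722 at an unadjusted p under 0.05 and 19 higher and 162 lower by DESeq2). Mag was the 1 member whose areas did not overlap, at 302 and 219 CPM against 352 and 425 CPM, as for 19.6% of genes. Distant brain also held different regions. The Pvalb and Gad1 cluster made up 3.50% and 6.28% of it in TREAT, against 13.7% and 23.9% in Vehicle. Hypothalamus made up 33.1% and 1.21% in TREAT, against 4.94% and 27.7% in Vehicle. The part of these regions in comparisons that use distant brain was not tested. In the cortex clusters the differences ran from -0.53 to 0.19, and none passed (edgeR adjusted p 0.235 to 0.936). Of 14484 genes, 0.0138% were called. An unadjusted p under 0.05 was found for 1 member and for 2171 of those 14484 genes. Both TREAT areas lay below both Vehicle areas for 1 member, as for 23.8% of genes. Mag and Cldn11 were lower in cortex without Vehicle 1+4, where 568 of 16978 genes were, and in distant brain without TREAT 1+4, where 420 of 17377 genes were.

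In the white matter cluster itself, 7 of the 9 genes were higher in both TREAT areas than in both Vehicle areas, as were 21.6% of all genes, and 1 was lower, as were 21%. Mbp was at 26161 and 24670 CPM against 20011 and 16838 CPM, Ermn at 618 and 546 CPM against 362 and 355 CPM, and Mog at 1114 and 1185 CPM against 744 and 792 CPM. Mag went the other way, at 1366 and 1339 CPM against 1493 and 1478 CPM. Differences ran from -0.15 for Mag to 0.69 for Ermn, and none of the 9 passed (edgeR adjusted p 0.144 to 0.824). Of 11916 genes, 0.101% were called higher and 0.319% lower. An unadjusted p under 0.05 was found for 4 members and for 1327 of those 11916 genes. The cluster held 168 and 65 spots in Vehicle and 325 and 206 in TREAT. Its neuronal markers summed to 2706 and 1909 CPM in TREAT against 4435 and 5007 CPM in Vehicle, and 3 of 10 neuronal genes were lower there. With the Pvalb and Gad1 cluster joined to it, Mog, Ermn, Mal and Opalin were called higher, beside 1.76% of 14356 genes. Without TREAT 1+4 Mog was higher, where 194 of 11103 genes were, and without TREAT 2+3 Mbp and Ermn were, where 72 of 11029 genes were.

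Over whole sections the 9 genes summed to 8788 and 4525 CPM in TREAT against 3376 and 2440 CPM in Vehicle. Ermn alone was called (118 and 64.3 CPM against 33.2 and 26.2 CPM, log2 1.26, edgeR adjusted p = 0.0484, with 1.11% of 20265 genes higher and 5.67% lower). All 9 differences lay between 0.52 and 1.26, and both TREAT areas lay above both Vehicle areas for all 9, as for 40% of genes. Tumour spots, where the 9 genes are low, were 345 and 753 of 3349 and 3012 spots in TREAT and 1075 and 1658 of 3157 and 3485 spots in Vehicle. Leaving out Vehicle 1+4, Vehicle 2+3 or TREAT 1+4 ended the call for Ermn, and without TREAT 2+3 all 9 were higher, where 1209 of 20283 genes were. The sections also held different brain regions: striatal spots were 200 and 152 in TREAT and 0 in both Vehicle areas, and all 10 striatum markers were higher in TREAT (median log2 2.03, beside 0.86 for the members). The part of these regions in the result was not tested.

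Among themselves the 9 genes varied together. Over 43 sums of a region in an area, the correlation of log levels between a member and the other 8 had a median from 0.961 to 0.986, except for Cnp at 0.888, and the lowest of the 36 pairs was Cnp with Cldn11 at 0.854. Over the 9172 single spots outside the tumour the medians fell to 0.532 to 0.729, and over the 3831 tumour spots they were 0.642 to 0.795. Members share spots and depth, so these values describe the tissue and carry no test. Of 11348 genes at 10 CPM or more, those most like the members' mean over the 43 sums included Fa2h at 0.990, Hapln2 and Ppp1r14a at 0.981, Sirt2 at 0.976 and Ugt8a at 0.971.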

How the data were processed

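Gene-by-spot UMI counts of 4 Visium capture areas were deposited by the authors as raw counts, made with Space Ranger 2.1.1 against mm10, per the submitters' processing notes, which also name R 4.4.1 and Seurat. The deposited tables were used as whole-number counts: 304 deprecated features of 32589 and spots under 500 UMIs were left out. Intervals and p-values cover 2 areas per group, and UMI totals over tissue ran from 34202695 to 56150597. The members and gene lists were chosen with earlier results of these data known. Some genes that the rules for named and most similar genes picked are not reported here.

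The tumour was set by Otsu's threshold (657 CPM) on the summed proliferation genes of a spot and its neighbours, in connected groups of at least 10 spots; 478 spots lay within 1.5 times of it. Spots were clustered with scanpy 1.11.5 and leidenalg 0.10.2. Counts were summed per area and compartment and tested with edgeR 4.0.16 (TMM, filterByExpr, quasi-likelihood F-test, adjusted p under 0.05 over all genes tested) in R 4.3.3. DESeq2 1.42.0, other filters, library totals, other tumour rules and left-out areas were alternatives. The members were all named; from each list, up to 4 genes with the smallest p in the tumour comparison of the groups were named, and others named beside them were chosen after their values were seen. Matched numbers in the area names were tried as a block.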

Additional observations from a re-analysis of the deposited data

Results flagged for a closer look

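The difference between tumour and distant brain differed between the groups for Ermn, by a test of that difference itself: it was 2.58 log2 units smaller in TREAT (SE 0.232, edgeR adjusted p = 0.0412). Distant Ermn was at 121 and 85.5 CPM in TREAT and 85.7 and 111 CPM in Vehicle, and tumour Ermn at 43.4 and 27.9 CPM in TREAT and 2.82 and 6.20 CPM in Vehicle.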

How the results depend on the processing

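Of 1206 values of single members under an alternative, 1078 kept their side of the threshold, 75 newly passed it, 44 no longer did and 9 turned. The 1078 include 45 that passed under neither setting and changed sign. Counts below are of the 9 members called. Leaving out 1 area at a time gave 0 to 9 for whole tissue, 3 to 9 for tumour, 0 to 9 for the ring, 0 to 2 each for distant brain, white matter and cortex, 0 to 1 for ring against distant brain, 0 to 8 for the tumour interaction and 0 to 1 for the ring interaction. Over whole tissue DESeq2 gave 4, a filter of 10 CPM 0 and library totals 4, where the main count was 1. For the tumour interaction DESeq2 gave 9, a filter of 10 CPM 0, a score threshold 1.5 times higher 0 and 1.5 times lower 6. With the filter of 10 CPM no gene at all was called in either of these 2 comparisons. The shares of all genes called under the other settings are not given here. These counts therefore show how the members' calls moved, and not how the members stood beside other genes. Tumour against distant brain kept 9 throughout.

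Alternatives added after seeing the data moved the tumour count most: 4 at 3 or more steps inside, 0 at 1 to 2 steps, 0 at 6 or more steps (Mbp -0.62 and called lower, Mobp -0.26) and 1 with the tumour from the tumour clusters (Mbp -0.59 and called lower, Mobp -0.29, Mag -0.45, Cldn11 -0.10). The same clusters gave 0 for the interaction and, for ring against distant brain, 0 higher and 5 lower, with Mog at -0.81, Mobp at -0.86 and Opalin at -0.50. White matter with the Pvalb and Gad1 cluster joined gave 4. Library totals moved the median of all genes in tumour from 0.10 to 0.53 and the calls from 2106 higher and 3410 lower to 7360 and 1239. The planned tumour from clusters with 3 or more proliferation markers was not run, since that cluster lay in Vehicle alone.

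The deviations of same-numbered areas correlated at r = 0.49 over whole tissue, 0.32 in cortex, 0.06 in the ring, -0.02 in white matter, -0.18 in tumour and -0.37 in distant brain. No label says what the numbers mark, and with 2 pairs they were not taken to pair the areas. The replicate block gave 7 for whole tissue, where 4749 of 20265 genes were higher and 4351 lower, 1 higher for white matter (58 of 11916 genes higher) and 1 lower for cortex (663 of 14484 genes lower), and moved no other count of members. The crossed pairing gave 9 in tumour and 2 in distant brain.

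Calls over all genes moved from 1373 to between 0 and 9100 for whole tissue, from 5516 to between 0 and 8599 for tumour, from 50 to between 0 and 695 for white matter, from 2374 to between 1001 and 9636 for ring against distant brain and from 5 to between 0 and 1181 for the tumour interaction. They reached 281 in the ring, 1348 in distant brain, 945 in cortex (2 in the main setting) and 13 for the ring interaction. With 2 areas per group, the number of areas limits every comparison of the groups.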
